A study of Mus musculus with 18 samples.

Results

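The expression of 10 genes of periportal liver metabolism was examined in mouse livers and liver tumours with and without the miR-181ab1 cluster. The genes were *Pck1*, *Fbp1*, *Sds*, *Sdsl*, *Hal*, *Gls2*, *Tat*, *Cyp2f2*, *Uox* and *Got1*. They were chosen by name, with earlier results of these data known. The set holds enzymes of gluconeogenesis, amino acid breakdown and purine breakdown, together with a marker of periportal hepatocytes. Each gene was found on 1 row of the 54838 rows of the expression table.

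Blood enters the liver lobule at the portal vein and leaves at the central vein, and hepatocytes divide their work along this path. Periportal hepatocytes, next to the incoming blood, make glucose from lactate and amino acids, break down amino acids and pass the nitrogen to the urea cycle. Glucagon raises many of these enzymes through cAMP and glucocorticoids raise them through their receptor, while insulin lowers several through FOXO factors, so their mRNA levels follow feeding and time of day as well as cell type.

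The 18 samples formed 6 groups of 3, all from C57BL/6 mice with a labelled age of 36 weeks. WT and GKO mice, the latter lacking miR-181ab1 (*Mir181a-1* and *Mir181b-1*) in every tissue, each gave tumours and the non-tumour liver around them after 1 intraperitoneal injection of diethylnitrosamine (DEN, a liver carcinogen) at 25 mg/kg on postnatal day 12. Untreated WT and GKO mice gave normal livers. The deletion was therefore not limited to hepatocytes. The labels name replicates only by number and do not say which came from separate mice, or which tumour and non-tumour liver came from the same mouse, so the p-values below measure the spread between these samples.

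Levels are given as TPM, read counts corrected for gene length and scaled to a total of 1000000 in each sample. Whole reads could be recovered from the TPM and gave 11925033 to 20751390 reads on genes per sample. The lowest of the 180 values of the 10 genes rested on 10 reads, *Sds* in WT non-tumour liver 2, and the others on 92 or more. The deleted genes could not serve as a check of genotype, since *Mir181b-1* was at 0 in all 18 samples and *Mir181a-1* in 17, with 1 read in GKO tumour 3. Every sample was rich in hepatocyte RNA: the 11 hepatocyte markers summed to 77699 TPM or more in each, and *Alb* lay between 22860 and 139816 TPM. In such bulk samples, fewer cells of a type and less RNA per cell cannot be told apart.

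The mature miRNAs of the deleted cluster are shown with the seed (bases 2 to 8), which pairs with target mRNAs, in capitals. Both carry the same seed.
miR-181a-5p (chr1:137966468-137966490, plus strand, GRCm38.p6): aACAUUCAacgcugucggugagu
miR-181b-5p (chr1:137966650-137966673, plus strand, GRCm38.p6): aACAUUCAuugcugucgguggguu

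The complement of this seed, TGAATGT, was present in the annotated 3′ UTR of *Hal* and in the longer annotated 3′ UTR of *Uox* (1698 bases). It was absent from the shorter one of *Uox* (129 bases) and from every 3′ UTR of the other 8 genes. Over the 11759 genes tested with a 3′ UTR in GENCODE, 17.6% held it in the longest UTR. The sites are shown on the mRNA strand, with the seed match and an A after it in capitals. A match is a stretch of letters and not a measured target site.
*Hal* (chr10:93518231-93518260, plus strand, mm10): gtcatttttgcTGAATGTAaacatacacat
*Uox* (chr3:146632078-146632106, plus strand, mm10): tgcaTGAATGTtttgtcTGAATGTAtgcc

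RefSeq promoters (250 bases before to 50 after the start, GRCm38.p6) were held for 7 of the 10 genes, all but *Sds*, *Sdsl* and *Gls2*. The promoters of *Pck1* and *Hal* are shown from base 170 to base 71 before the start. The log2(TPM + 1) levels of both genes had a Pearson's r of 0.76 over the 18 samples, and of 0.62 without WT non-tumour liver 2. Shared control of these genes was not tested. Capitals mark the short cAMP response motif TGACG on the reverse strand.
*Pck1* (chr2:173152903-173153002, plus strand): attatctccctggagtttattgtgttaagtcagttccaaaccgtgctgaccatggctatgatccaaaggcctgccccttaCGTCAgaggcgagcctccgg
*Hal* (chr10:93488598-93488697, plus strand): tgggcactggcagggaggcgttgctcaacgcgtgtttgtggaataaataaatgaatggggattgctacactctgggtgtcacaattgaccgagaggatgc

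On either strand of the whole windows, TGACG was found in *Pck1* alone of the 7, at bases 90 to 86 before the start, and in 20.8% of 32851 promoters. The full cAMP response motif TGACGTCA, which contains it, the C/EBP motif TTGCGCAA, the E-box CACGTG and the forkhead motifs TGTTTAC and TGTTTTG were found in none of the 7. They were present in 1.79%, 0.18%, 7.15%, 3.65% and 6.28% of all promoters, respectively.

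*Pck1* (chr2:173153048-173159273, mm10, plus strand unless stated, as for the genes that follow) encodes cytosolic phosphoenolpyruvate carboxykinase, which commits oxaloacetate to glucose synthesis. Its level was 1114, 1403 and 2484 TPM in WT normal livers 1 to 3 and 1297, 1097 and 2409 TPM in GKO normal livers. In non-tumour livers it was 1026, 138 and 2163 TPM in WT and 1633, 2059 and 2514 TPM in GKO. Tumours of WT mice had 1382, 1053 and 567 TPM, and those of GKO mice 121, 735 and 1155 TPM. WT non-tumour liver 2 and GKO tumour 1 were the lowest of the 18 samples, and all GKO tumours lay below all GKO non-tumour livers.

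*Fbp1* (chr13:62864753-62888282, minus strand) encodes fructose-1,6-bisphosphatase, a later step of the same pathway. It was measured at 259, 343 and 650.4 TPM in WT normal livers and at 204, 441 and 690.3 TPM in GKO normal livers. WT non-tumour livers had 513, 389 and 1284.5 TPM, and GKO non-tumour livers 990.1, 158 and 397 TPM. WT tumours had 1464, 1138 and 1860.1 TPM, above every normal liver, while GKO tumours had 1036, 639 and 2024 TPM and overlapped their normal livers.

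*Sds* (serine dehydratase, chr5:120476526-120483932) and its neighbour and paralog *Sdsl* (chr5:120458186-120472810, minus strand) make pyruvate from serine. *Sds* was at 70.8, 100.5 and 396 TPM in WT and 96.3, 62.7 and 266 TPM in GKO normal livers. It was at 202, 0.723 and 193 TPM in WT non-tumour livers and at 234, 148 and 188 TPM in GKO non-tumour livers. WT tumours had 278, 176 and 59.4 TPM, and GKO tumours 76.9, 83.5 and 68.1 TPM. The 3 GKO tumours were thus alike and below all 3 GKO non-tumour livers, while WT non-tumour liver 2 was nearly without *Sds*.

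*Sdsl* varied less. It was at 39.7, 32.02 and 151 TPM in WT normal, 44.8, 48.6 and 64.4 TPM in GKO normal and 41.1, 7.53 and 55.5 TPM in WT non-tumour livers. GKO non-tumour livers had 71.0, 61.8 and 42.8 TPM, WT tumours 98.1, 81.3 and 42.2 TPM, and GKO tumours 64.0, 48.8 and 58.4 TPM. The lowest value was that of WT non-tumour liver 2 and the highest that of WT normal liver 3, and with all samples no pair of compared groups was free of overlap.

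*Hal* (chr10:93488768-93519304) encodes histidine ammonia-lyase, the first step of histidine breakdown. Normal livers had 72.2, 100.5 and 211 TPM in WT and 59.99, 57.2 and 153 TPM in GKO, and non-tumour livers 129.7, 18.4 and 109 TPM in WT and 124, 110.1 and 128 TPM in GKO. WT tumours had 244.5, 170.1 and 147 TPM, and GKO tumours 31.4, 67.7 and 136 TPM. All WT tumours were above all GKO tumours and above all WT non-tumour livers.

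*Gls2*, the liver-type glutaminase (chr10:128194457-128210004), releases ammonia from glutamine. It was at 66.4, 92.3 and 164 TPM in WT and 72.5, 69.4 and 155 TPM in GKO normal livers, and at 181.4, 47.3 and 141 TPM in WT and 133, 105 and 115 TPM in GKO non-tumour livers. WT tumours had 512, 394 and 164.5 TPM, and GKO tumours 236, 148 and 452 TPM. GKO tumours lay above their non-tumour livers without overlap, and WT tumours above their normal livers, the latter by less than 1 TPM at the nearest pair (164.5 against 163.6 TPM).

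*Tat*, tyrosine aminotransferase (chr8:109990437-109999803), and *Got1*, cytosolic aspartate aminotransferase (chr19:43499752-43524605, minus strand), move amino groups from amino acids to a keto acid. *Tat* was at 319, 451 and 809 TPM in WT normal, 195, 279 and 586 TPM in GKO normal, 292, 404 and 573 TPM in WT non-tumour and 646, 389.8 and 358 TPM in GKO non-tumour livers. WT tumours had 1785, 1114 and 120.1 TPM, the highest, second highest and lowest of all 18 samples, and GKO tumours 919, 409 and 825 TPM.

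*Got1* split the WT tumours in the same way, at 637, 488 and 72.1 TPM. It was at 60.1, 68.9 and 154 TPM in GKO tumours, 88.2, 43.3 and 110.2 TPM in WT non-tumour and 168, 65.4 and 59.1 TPM in GKO non-tumour livers. WT normal livers had 59.7, 64.3 and 362 TPM, and GKO normal livers 49.7, 39.5 and 132 TPM. No pair of compared groups was free of overlap for either gene.

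*Cyp2f2* (chr7:27119909-27133660) encodes a cytochrome P450 that serves as a marker of periportal hepatocytes. Normal livers had 301, 372 and 428 TPM in WT and 284, 309.9 and 534 TPM in GKO, and non-tumour livers 419, 30.1 and 407 TPM in WT and 411, 236 and 498 TPM in GKO. WT tumours had 13.4, 18.3 and 36.0 TPM, and GKO tumours 216, 101 and 44.0 TPM. Every GKO tumour lay above every WT tumour and below every normal liver and every GKO non-tumour liver.

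*Uox* (chr3:146570426-146632305) encodes urate oxidase, which in mice turns uric acid into allantoin. It was the least variable of the 10, with a highest value 4.95 times its lowest. Normal livers had 325, 431 and 515 TPM in WT and 406, 415 and 547 TPM in GKO, and non-tumour livers 398, 308 and 523 TPM in WT and 396, 316 and 363 TPM in GKO. WT tumours had 224, 161 and 265 TPM, below all WT normal and non-tumour livers, while GKO tumours were spread over 798, 224 and 716 TPM.

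**Figure D1:**
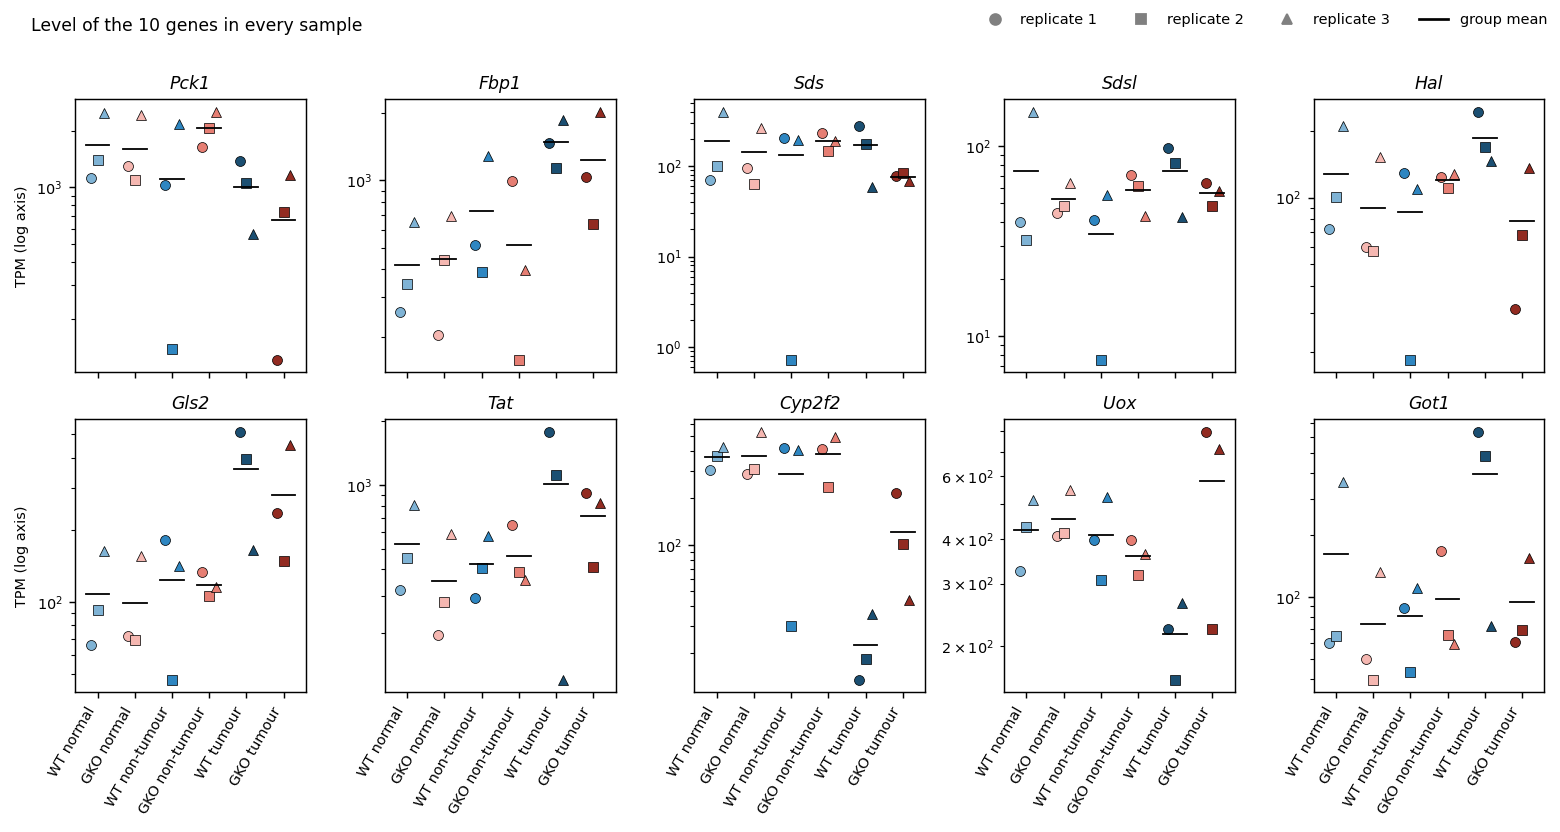
TPM (log axis, a separate range for each gene) of the 10 genes in the 6 groups, with 1 symbol per sample (circle, square and triangle for replicates 1, 2 and 3) and a line at the group mean. *Cyp2f2* was at 13.4 to 36.0 TPM in WT tumours and 301 to 428 TPM in WT normal livers, and the square of WT non-tumour liver 2 was the lowest of all samples for *Sds*, *Sdsl*, *Hal* and *Gls2*.

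Tumours were first set against normal livers of the same genotype. In WT, *Cyp2f2* and *Uox* were lower in tumours and *Fbp1* and *Gls2* higher, while the serine, histidine, tyrosine and aspartate enzymes and *Pck1* did not pass the test. In limma on log2(TPM + 1), a scale that understates changes of low genes, 4 of the 10 genes had a Benjamini-Hochberg adjusted p under 0.05, against 27.5% of all 13644 genes tested. The groups did not overlap for the same 4 genes, against 47.0% of all genes.

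*Cyp2f2* fell from 367 ± 63.7 TPM (SD, n = 3) in WT normal livers to 22.6 ± 11.9 TPM in WT tumours. Its log2 fold change in limma was -4.06 (SE 0.36, adjusted p = 0.000851), 16.3-fold lower by means, and it was called under each of the 16 alternatives tried. *Uox* fell from 423 ± 95.3 to 217 ± 52.1 TPM, a log2 fold change of -0.97 (SE 0.27, limma adjusted p = 0.0392). *Fbp1* rose 3.56-fold, from 417 ± 206 to 1487 ± 362 TPM (log2 fold change 1.91, SE 0.38, limma adjusted p = 0.0131), and *Gls2* 3.32-fold, from 107 ± 50.4 to 357 ± 177 TPM (log2 fold change 1.67, SE 0.50, limma adjusted p = 0.0476).

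The median of all genes was 0.29 higher in WT tumours than in WT normal livers on the log2 scale. With the samples centred on the median, *Cyp2f2* was at -4.45, *Uox* at -1.35 and *Fbp1* at 1.53, all still called, whereas *Gls2* was at 1.29 with a limma adjusted p of 0.103. Without WT normal liver 1 or without WT normal liver 2 *Cyp2f2* was the only call, and without WT tumour 3 there were 5, *Tat* being the added one at a log2 fold change of 1.53 (limma adjusted p = 0.0329). The call of *Uox* was lost when any 1 sample other than WT tumour 3 was left out, and that of *Gls2* without WT normal liver 1 or 2 or WT tumour 1 or 2.

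In GKO, 1 of the 10 genes was called between tumours and normal livers, against 20.1% of 13928 genes. *Cyp2f2* fell from 376 ± 138 to 120 ± 87.7 TPM (log2 fold change -1.86, SE 0.55, limma adjusted p = 0.0491), and its groups alone did not overlap, against 43.3% of all genes. The call was lost without any single one of the 3 normal livers, GKO tumour 2 or GKO tumour 3, at adjusted p-values of 0.0879 to 0.135. *Gls2* had a log2 fold change of 1.44 (limma adjusted p = 0.065) and *Fbp1* one of 1.47 (adjusted p = 0.0911). The median of all genes was 0.31 higher in GKO tumours, and after centring *Cyp2f2* stood at -2.21 with an adjusted p of 0.059.

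Hepatocyte and proliferation markers summed higher in every tumour than in every normal liver. Fibroblast sums were higher in the tumours of each genotype, with single markers moving both ways. Endothelial sums were higher in WT tumours and overlapped with normal livers in GKO. The 11 hepatocyte markers, each detected in every sample, summed to 214225 to 252229 TPM in tumours and to 92348 to 115023 TPM in normal livers. The 10 proliferation markers summed to 29.3 to 128 TPM in tumours and to 13.1 to 22.2 TPM in normal livers, with *Ccnb1*, *Birc5*, *Mcm5* or *Aurkb* at 0 in some samples. The 10 endothelial markers summed to 95.6 to 130.1 TPM in tumours and 52.6 to 55.8 TPM in normal livers of WT mice. In GKO mice they summed to 90.3 to 143 and 78.8 to 114 TPM, with 5 of the 10 higher on average in tumours. Limma called 4 as higher in each genotype, 40.0% of the list, against 27.5% of all genes in WT and 20.1% in GKO. The 10 fibroblast markers summed to 54.5 to 98.8 TPM in tumours and 39.9 to 48.6 TPM in normal livers of WT mice (4 called higher, 2 lower), and to 99.8 to 193 and 66.0 to 92.6 TPM in GKO mice (3 higher, 1 lower). Their part in the results of the 10 genes was not tested.

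Tumours were then compared with the non-tumour liver of mice given DEN. These comparisons share the tumour samples with those against normal livers and are not independent of them. In WT, limma called 0 of the 10 genes, against 4.23% of 14003 genes, and 4 of the 10 had an unadjusted p under 0.05, against 19.9% of all genes, while voom also called 0. The groups did not overlap for *Hal*, higher in tumours (log2 fold change 1.49, SE 0.72, limma adjusted p = 0.309), and *Uox*, lower in tumours (-0.91, SE 0.31, adjusted p = 0.167), against 24.8% of all genes.

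WT non-tumour liver 2 weighed on this comparison. *Cyp2f2* had a log2 fold change of -3.00 (SE 1.01, limma adjusted p = 0.169) with all samples and of -4.25 (adjusted p = 0.00908) without that liver. *Pck1* turned from 0.47 to -0.67 and *Sds* from 1.82 to -0.46 without it, neither passing the test. Without WT tumour 3, *Got1* (2.88, limma adjusted p = 0.0154) and *Tat* (1.79, adjusted p = 0.0411) were called as higher in tumours. WT tumour 3 stood apart from WT tumours 1 and 2, with proliferation markers at 29.3 TPM against 128 and 118 TPM. Its Pearson's r of log2(TPM + 1) over genes was 0.92 to each of them. Between WT tumours 1 and 2 r was 0.98, the highest of any 2 replicates of a group. The labels do not say whether these came from separate mice. The part of WT tumour 3 in these results beyond the values without it was not tested.

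In GKO, *Sds* fell from 190 ± 43.4 TPM in non-tumour livers to 76.2 ± 7.73 TPM in tumours. It was the 1 gene of the 10 called, against 11.7% of 14092 genes (log2 fold change -1.29, SE 0.25, limma adjusted p = 0.0221). The groups also did not overlap for *Pck1* (log2 fold change -2.12, adjusted p = 0.11), *Cyp2f2* (-1.87, adjusted p = 0.0741) and *Gls2* (1.09, adjusted p = 0.114), 4 genes in all, against 38.3% of all genes. The call of *Sds* was lost without GKO non-tumour liver 3 (adjusted p = 0.105), GKO tumour 1 (0.0534) or GKO tumour 3 (0.066), and in a fit of all 18 samples (0.505). The median of all genes was 0.20 higher in GKO tumours, and after centring *Sds* stood at -1.52 (limma adjusted p = 0.0113).

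**Figure D2:**
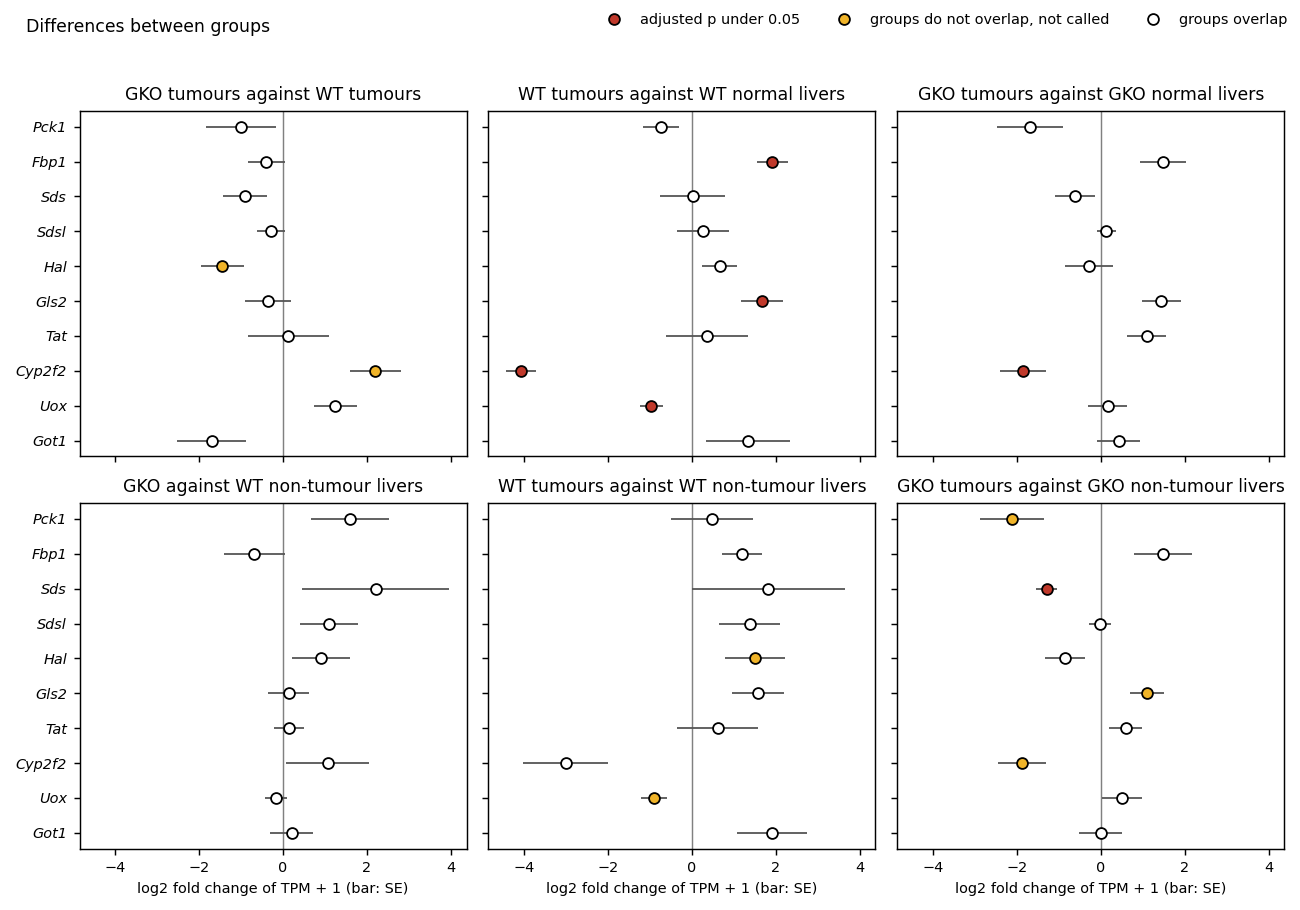
Log2 fold change of TPM + 1 (x axis, bars give the SE) of each of the 10 genes in 6 comparisons. Red points had a limma adjusted p under 0.05, yellow points only groups that did not overlap. *Cyp2f2* lay at -4.06 in WT and -1.86 in GKO tumours against normal livers, and no point was red for GKO against WT.

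GKO tumours were compared with WT tumours. The authors reported smaller and less proliferative tumours in GKO mice, and the labels give no tumour size. The deletion and tumour size or growth therefore cannot be told apart in this comparison. On the log2 scale 7 of the 10 genes were lower on average in GKO tumours and *Cyp2f2*, *Uox* and *Tat* higher, but none passed the test in limma. Limma called 0 of the 10, against 0.0215% of 13964 genes, with 3 of the 10 at an unadjusted p under 0.05, against 8.87% of all genes, and its voom on the recovered reads also called 0. The groups did not overlap for *Cyp2f2* and *Hal*, against 14.7% of all genes.

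*Cyp2f2* was 5.33-fold higher by means in GKO tumours, 120 ± 87.7 against 22.6 ± 11.9 TPM (log2 fold change 2.20, SE 0.61, limma adjusted p = 0.416). *Uox* was 2.67-fold higher, 579 ± 310.4 against 217 ± 52.1 TPM (1.24, SE 0.51, adjusted p = 0.544), with GKO tumour 2 inside the range of WT tumours. Both kept this sign under all 16 alternatives, at 1.64 to 2.77 for *Cyp2f2* and 0.91 to 1.83 for *Uox*. *Tat* had no stable sign, with 3 alternatives in the other direction.

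*Hal* was 2.39-fold lower by means in GKO tumours, 78.3 ± 52.9 against 187 ± 51.1 TPM (log2 fold change -1.45, SE 0.51, limma adjusted p = 0.511). *Got1* was 4.22-fold lower, 94.5 ± 52.0 against 399 ± 293 TPM (-1.70, SE 0.83, adjusted p = 0.598), and WT tumour 3 lay within the range of GKO tumours. *Pck1* had a log2 fold change of -1.001 (adjusted p = 0.734), which was -0.03 without GKO tumour 1, the sample with 121 TPM. Of the 2 genes with a seed match in the 3′ UTR shown above, *Uox* was higher and *Hal* lower on average in GKO tumours.

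*G6pc*, glucose-6-phosphatase, which releases the glucose made through *Pck1* and *Fbp1*, was looked at after its values were seen. WT tumours had 125, 91.1 and 140.1 TPM of it, and GKO tumours 3.77, 30.1 and 62.7 TPM, without overlap (log2 fold change -2.48, limma adjusted p = 0.511). GKO tumour 1 was thus the lowest of the GKO tumours for *G6pc* as well as for *Pck1* and *Hal*. The 10 fibroblast markers summed to 54.5 to 98.8 TPM in WT tumours, and to 99.8 to 193 TPM in those of GKO mice, with *Acta2* at 0 in 1 sample of the series. Of these markers 7 were higher on average in GKO tumours, and limma called 0. The 10 evening clock genes summed to 115 to 189 TPM in WT tumours and to 268 to 546 TPM in GKO tumours, and all 10 were higher on average in the latter (median log2 fold change 1.399, against 0.09 for all genes). Limma called 0 of them, with 8 of the 10 at an unadjusted p under 0.05, against 8.87% of all genes. The 8 cholangiocyte markers, of which limma tested 5 and called 0, summed to 52.0, 59.4 and 32.6 TPM in WT tumours. Their sums were 48.7, 969 and 565 TPM in GKO tumours. Of these sums *Spp1* made up 934 TPM in GKO tumour 2 and 536 TPM in GKO tumour 3, while *Krt19* was at 5.47 TPM or less and *Krt7* at 0.729 TPM or less in all tumours. The part of these genes in the differences was not tested.

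The difference between the genotype effect in tumours and that in non-tumour livers was tested as an interaction in limma. It was called for 0 of the 10 genes, against 0.0142% of 14106 genes, with 2 of the 10 at an unadjusted p under 0.05, against 10.5% of all genes, and 0 called by voom. *Hal* had the lower of these p-values (log2 difference -2.34, SE 0.94, adjusted p = 0.472) and *Uox* the other (1.41, SE 0.61, adjusted p = 0.475). Without WT non-tumour liver 2, *Hal* was at -1.47 (limma adjusted p = 0.638) and *Uox* at 1.60 (adjusted p = 0.617).

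Non-tumour livers were also compared directly. GKO and WT non-tumour livers overlapped for all 10 genes, against 13.2% of 13768 genes without overlap, and limma called 0 of the 10 and 0% of all genes, with 0 of the 10 at an unadjusted p under 0.05, against 5.8% of all genes, and 0 called by voom. The largest difference was that of *Sds*, at a log2 fold change of 2.20 (SE 1.75, limma adjusted p = 0.652), and without WT non-tumour liver 2 it was -0.08. *Pck1* went from 1.59 to 0.45 and *Cyp2f2* from 1.06 to -0.18 when that liver was left out. The median of all genes was -0.15 in this comparison.

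Against normal livers, WT non-tumour livers gave 0 calls and 0 genes without overlap among the 10, against 0.00744% of 13440 genes called and 33.9% without overlap. GKO non-tumour livers gave 0 calls, against 0% of 13530 genes, and *Uox* alone did not overlap, against 8.73% of all genes. It was at 359 ± 40.0 TPM in GKO non-tumour and 456 ± 78.8 TPM in GKO normal livers (log2 fold change -0.34, SE 0.22, limma adjusted p = 1). In both comparisons 0 of the 10 had an unadjusted p under 0.05, against 24.4% of all genes in WT and 5.2% in GKO, and voom called 0. The median of all genes was 0.32 higher in WT non-tumour than in WT normal livers.

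WT non-tumour liver 2 stood apart from the other 5 non-tumour livers. It was below all 5 for 8 of the 10 genes, as were 19.95% of the 13914 genes that averaged 0.5 TPM or more over all samples. For 4 of the 10 (*Sds*, *Sdsl*, *Hal* and *Gls2*) it was the lowest of all 18 samples, against 3.54% of genes.

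*Sds*, at 0.723 TPM, was 266-fold below the median of the other 5 non-tumour livers (193 TPM). By the difference of log2(TPM + 1), which was -6.81, it ranked number 4 from the lowest among the 13914 genes. *Pck1* was 14.9-fold lower (138 against 2059 TPM), *Cyp2f2* 13.7-fold (30.1 against 411 TPM), *Sdsl* 7.37-fold (7.53 against 55.5 TPM) and *Hal* 6.73-fold (18.4 against 124 TPM). *Gls2* was 2.80-fold lower and *Got1* 2.04-fold. *Tat*, at 404 TPM, was inside the range of the others (292 to 646 TPM), as was *Fbp1*, at 389 TPM (158 to 1284.5 TPM), so the low values did not extend to the whole set.

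In the same liver *G6pc* was at 17.2 TPM, against 62.4 to 143 TPM in the other 5, and *Alb* at 38007 TPM, inside their range of 23910 to 41169 TPM. The 10 proliferation markers summed to 71.6 TPM, against 11.0 to 23.8 TPM in the other 5, and *Mki67* was at 4.09 TPM, against 0.178 to 0.406 TPM. The 26 pericentral genes summed to 27627 TPM, the highest of all 18 samples, followed by 20823 TPM in GKO non-tumour liver 1. *Glul*, glutamine synthetase, which is made in the hepatocytes next to the central vein, was at 159 TPM, 3.39-fold below the median of the other 5 (448 to 1114 TPM). The parts of dividing cells and of position in the lobule in the low values were not tested, nor was whether this sample held tumour tissue. Its depth, 17907765 reads on genes, was within the range of the other samples.

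**Figure D3:**
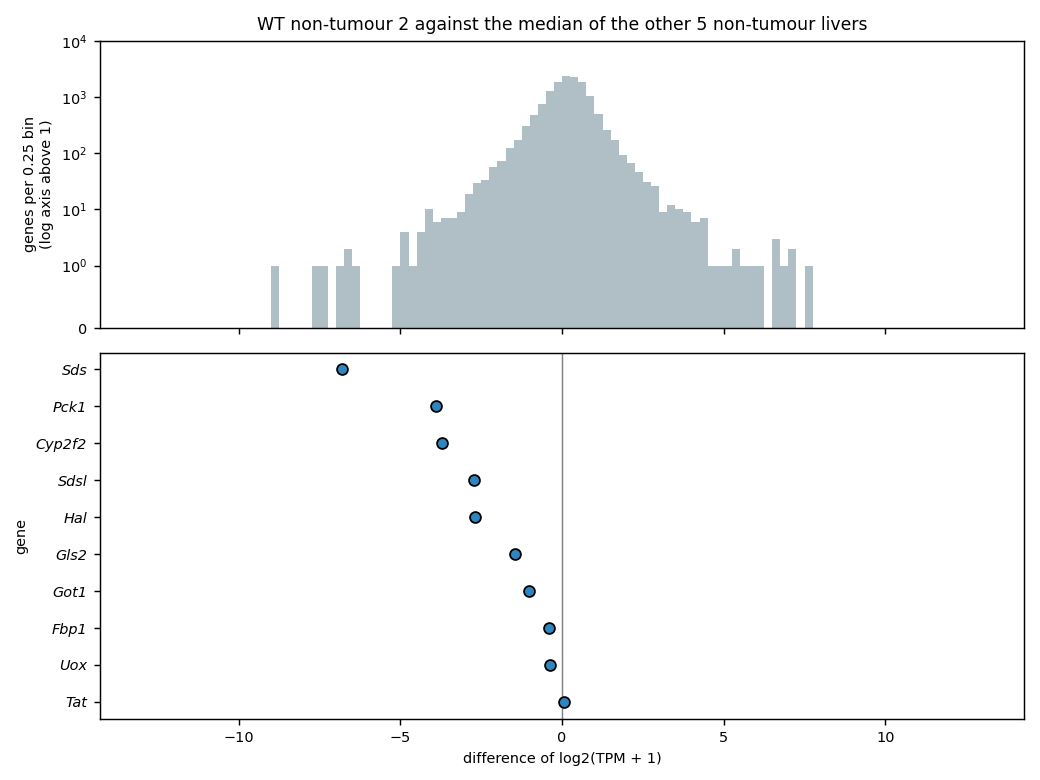
Difference of log2(TPM + 1) between WT non-tumour liver 2 and the median of the other 5 non-tumour livers (x axis). The upper panel counts all 13914 genes in bins of 0.25 on an axis that is logarithmic above 1, and the lower panel gives the 10 genes, from *Sds* at -6.81 to *Tat* at 0.05.

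GKO and WT normal livers of untreated mice overlapped for all 10 genes, against 7.95% of 13099 genes without overlap. Limma called 0 of the 10 and 0% of all genes, with 0 of the 10 at an unadjusted p under 0.05, against 3.96% of all genes, and 0 called by voom. Their log2 fold changes ran from -0.80 for *Got1* (SE 0.74, limma adjusted p = 0.999) to 0.12 for *Uox* (SE 0.22, adjusted p = 0.999).

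Within the normal livers, the samples numbered 3 were high. WT normal liver 3 and GKO normal liver 3 were each the highest of their group for all 10 genes, against 11.1% of genes. *Got1* in WT normal liver 3 was 5.83 times the mean of the other two, *Sds* 4.63 times and *Sdsl* 4.22 times. In GKO normal liver 3, *Sds* was 3.35 times, *Got1* 2.97 times and *Sdsl* 1.38 times that mean. *Pck1*, *Fbp1*, *Gls2* and *Tat* were 1.97 to 2.47 times it in both genotypes, and *Uox* 1.36 and 1.33 times.

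These 2 livers also had the lowest sum of the 7 morning clock genes in their group. The sum was 193 TPM in WT normal liver 3, against 306 and 447 TPM, and 151 TPM in GKO normal liver 3, against 229 and 497 TPM. The 10 evening clock genes did not set these livers apart in the same way, with sums of 94.3, 137 and 129.5 TPM in WT and 238, 120.2 and 240.3 TPM in GKO normal livers 1 to 3. The labels do not give the time of collection, and the part of clock timing was not tested.

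**Figure D4:**
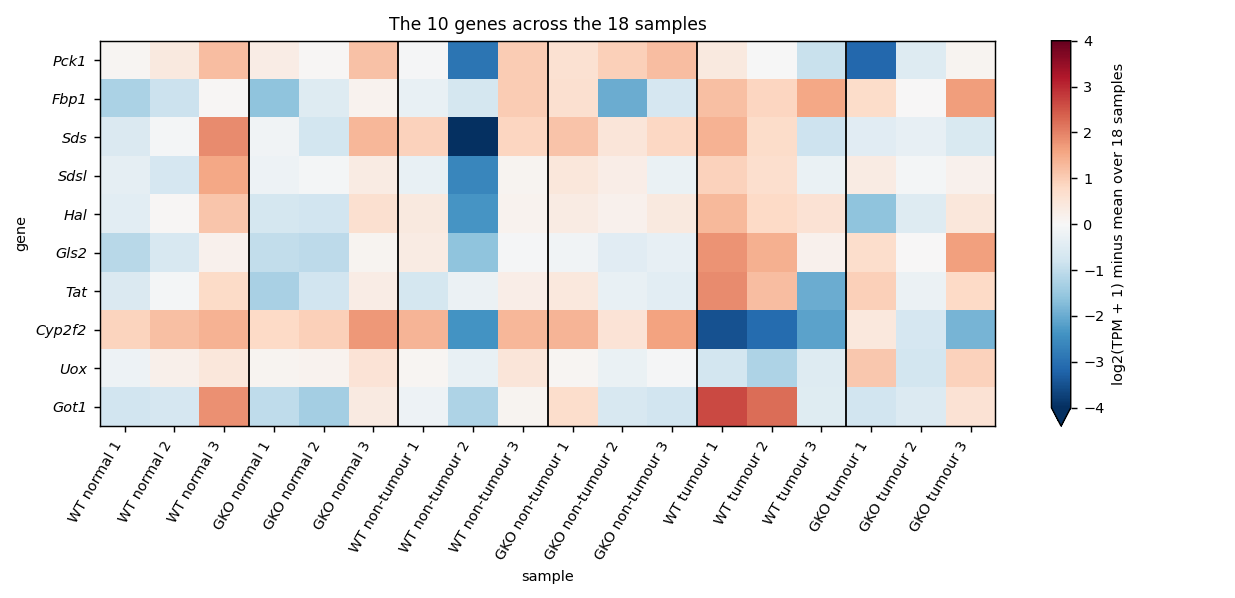
Level of the 10 genes (rows) in the 18 samples (columns), as log2(TPM + 1) minus the gene's mean over all samples, in colour from blue (low) to red (high). WT normal liver 3 and GKO normal liver 3 were the highest of their groups in every row, and *Sds* in WT non-tumour liver 2, at 0.723 TPM, lies beyond the colour scale.

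Over the 18 samples, the 10 genes did not vary as a single block. Pearson's r of log2(TPM + 1) was above 0.5 for 17 of the 45 pairs and below 0 for 10, with a median of 0.37. These values describe 18 libraries of 6 groups, which share tissue and genotype, and have no test. *Sds* and *Sdsl* had the highest r, 0.88, followed by *Sds* and *Hal* (0.81). *Pck1* went with *Hal* (0.76) and *Sds* (0.74), and *Gls2* with *Got1* (0.77) and *Fbp1* (0.76). *Hal* also went with *Got1* (0.73).

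*Cyp2f2* ran against *Gls2* (-0.48) and *Fbp1* (-0.48) and with *Uox* (0.56). Several of these values were lower without WT non-tumour liver 2. Without it, r was 0.65 for *Sds* and *Sdsl*, 0.67 for *Sds* and *Hal*, 0.62 for *Pck1* and *Hal* and 0.59 for *Pck1* and *Sds*. For *Gls2* and *Got1* r was 0.76 without it, and for *Cyp2f2* and *Gls2* -0.73.

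**Figure D5:**
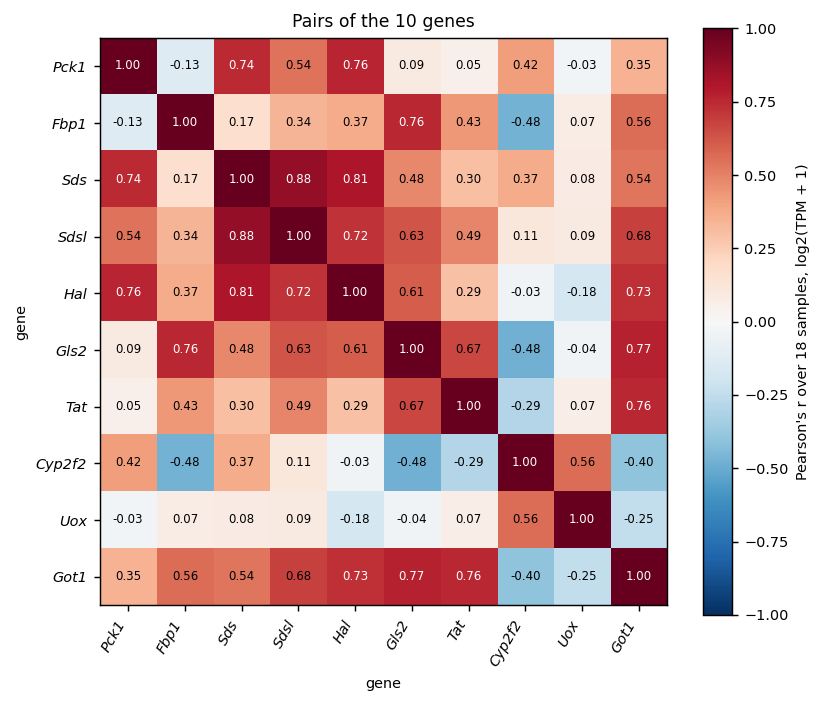
Pearson's r of log2(TPM + 1) over the 18 samples for each pair of the 10 genes (both axes), in colour from -1 (blue) to 1 (red). The highest value is that of *Sds* and *Sdsl* (0.88), and *Cyp2f2* has negative values with *Gls2* and *Fbp1* (-0.48 each).

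Among the 6857 other genes averaging 5 TPM or more, the 3 most like each gene over the 18 samples were found by Pearson's r. For *Sds* they were *Sdsl*, *Hal* and *Agt* (0.88, 0.81 and 0.78), and for *Sdsl* they were *Sds*, *Sorbs3* and *Wsb1* (0.88, 0.78 and 0.77). For *Hal* they were *Sds*, *Wsb1* and *Slc7a2* (0.81, 0.79 and 0.78), so that *Sds*, *Sdsl* and *Hal* were each led by another of the 10. Without WT non-tumour liver 2, r was 0.65 for *Sds* and *Sdsl* and 0.67 for *Sds* and *Hal*. The ranking was not made without that liver. *Got1* was most like *Slc7a2*, *Fh1* and *Wsb1* (0.88, 0.88 and 0.85). *Slc7a2* encodes a transporter of basic amino acids and *Fh1* fumarase.

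Among the genes most like *Pck1* were *Tmem189* and *Tedc2* (0.87 and 0.86), and among those most like *Fbp1* were *Smpdl3a* and *Selenop* (0.90 each). *Gls2* was most like *Fmo4*, *St6galnac6* and *Ppt2* (0.85, 0.84 and 0.83). *Tat* was most like *Ppt2*, *Ppa1* and *Bet1l* (0.84, 0.83 and 0.80). *Cyp2f2* had the closest companions of the 10, *Ggnbp1*, *Pth1r* and *Sugct* (0.95, 0.93 and 0.91), and *Uox* was most like *Upp2*, *Slc27a5* and *Ahcy* (0.84, 0.83 and 0.82). The last of these encodes S-adenosylhomocysteine hydrolase, and *Upp2* a uridine phosphorylase.

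Other genes of the same pathways were read from lists, each to be read against the 27.5% of all genes called in WT and 20.1% in GKO. Of 18 other gluconeogenesis genes, limma called 3 as higher and 1 as lower in WT tumours against WT normal livers, with a median log2 fold change of 0.51 against 0.29 for all genes, and likewise 3 and 1 in GKO (median 0.58 against 0.31), which was 22.2% of the list called in each genotype. *Pck2*, the mitochondrial partner of *Pck1*, rose from 1.07 ± 0.255 to 9.49 ± 4.59 TPM in WT tumours (log2 fold change 2.23, limma adjusted p = 0.00812) and from 1.30 ± 0.333 to 8.44 ± 2.91 TPM in GKO tumours (1.99, adjusted p = 0.00612). It stayed well below *Pck1* in TPM in every group.

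Of 38 other genes of amino acid breakdown, 3 were higher and 8 lower in WT tumours against WT normal livers (median 0.00), and 0 higher and 2 lower in GKO (median -0.04), or 28.9% and 5.26% of the list called. *Uroc1*, the enzyme after *Hal* in histidine breakdown, rose from 128 ± 19.6 to 309 ± 68.2 TPM in WT tumours (log2 fold change 1.26, limma adjusted p = 0.0115). *Hpd*, the enzyme after *Tat* in tyrosine breakdown, fell from 1891 ± 797 to 781 ± 173 TPM (-1.22, adjusted p = 0.0398).

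Beside *Uox*, 7 of 8 other purine breakdown genes could be tested. Of these, 0 were higher and 2 lower in WT tumours against WT normal livers (*Aox3* and *Gda*), and 0 and 2 in GKO (*Aox3* and *Aox1*), 28.6% of those tested in each. *Aox3*, an aldehyde oxidase, had log2 fold changes of -2.41 in WT (limma adjusted p = 0.046) and -2.64 in GKO (adjusted p = 0.045).

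Of 23 other periportal genes, 5 were higher and 6 lower in WT tumours against WT normal livers, and 5 and 6 in GKO, with medians of 0.40 and 0.34 and 47.8% of the list called in each. *Aldh1b1*, a mitochondrial aldehyde dehydrogenase, rose from 17.4 ± 21.6 to 243 ± 24.0 TPM in WT (log2 fold change 4.47, limma adjusted p = 0.0101) and *Cdh1*, E-cadherin, from 4.03 ± 0.634 to 37.3 ± 16.4 TPM (2.86, adjusted p = 0.00167). *Igf1* fell from 189 ± 20.4 to 9.17 ± 10.4 TPM (-4.70, adjusted p = 0.00397), a log2 change near that of *Cyp2f2*. The wider periportal list, like the 10 genes, thus held genes that moved in opposite directions in the same tumours.

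Pericentral genes, which mark the other end of the lobule, were counted in the same way. Limma called 22 of 25 as lower and 0 as higher in WT tumours against WT normal livers (median -3.04), and 15 of 26 and 0 in GKO (median -2.74), or 88.0% and 57.7% called. *Cyp2c54*, a cytochrome P450, fell from 275 ± 72.2 to 3.09 ± 1.65 TPM in WT tumours (log2 fold change -6.11, limma adjusted p = 0.00021).

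Of 23 regulators and hormone-responsive genes, 22 could be tested against normal livers. In WT tumours 2 were higher and 1 lower, and in GKO tumours 5 were higher and 0 lower, or 13.6% and 22.7% called. *Igfbp1*, which insulin lowers in hepatocytes, rose from 20.4 ± 18.4 to 2878 ± 738 TPM in WT tumours (log2 fold change 7.38, limma adjusted p = 0.000519). In GKO it was at 12.0, 33.9 and 11.2 TPM in normal livers and at 122, 3782 and 216 TPM in tumours (4.72, limma adjusted p = 0.0299), so that GKO tumour 2 carried most of the mean in tumours. *Gcgr*, the glucagon receptor, fell from 291 ± 36.6 to 192 ± 7.89 TPM in WT tumours (-0.60, adjusted p = 0.0482). Between GKO and WT tumours, limma called 0 of the 131 tested genes of these 6 lists, with 15 at an unadjusted p under 0.05 (11.5%, against 8.87% of all genes).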

How the data were processed

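RNA-seq of 18 liver and tumour samples was examined, grouped by the genotype and tissue in the labels. The authors used STAR 2.7.3a and the mm10 genome for alignment and featureCounts 2.0.0 for read counts, and deposited TPM values, of which 54809 of 54838 rows were found in GENCODE mouse release M21. The table had 0 columns without a sample. TPM times exonic length gave whole reads, within 0.02, for 97.95% or more of values up to 30 reads in each sample. This gave 11925033 to 20751390 reads per sample, so depth did not limit the 10 genes except *Sds* in WT non-tumour liver 2. No 2 replicates had identical values, and their reads differed by more than counting error.

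Groups were compared in R 4.3.3 by limma 3.58.1 (lmFit and trended eBayes) after a log2(TPM + 1) transformation. Genes averaging under 0.5 TPM in the compared samples were left out. A call required an adjusted p (Benjamini-Hochberg, all tested genes) below 0.05. Only the groups compared entered a fit. "Against" a percentage gives the same count over all genes. The procedure was tested on simulated data. Sequences were RefSeq's (GRCm38.p6) and, for 3′ UTRs, mm10 with GENCODE M21. Figures used Python 3.11.15 and matplotlib 3.10.9.

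The 10 genes and all lists were chosen with earlier results of these data known. All 10 are named. Of each other list, a comparison could name the 4 largest rises and 4 largest falls among called genes whose groups do not overlap, and the 3 genes most like each of the 10 were those with the highest r. Some genes that this rule selects are not reported here. *G6pc*, *Alb*, *Glul*, *Mki67* and single cell type markers were named after their values were seen. Alternatives were a pseudocount of 0.1, no filter, a stricter filter of 5 TPM, no trend, quantile normalization, centring on the sample median, a joint fit of all 18 samples, a replicate block and leaving out each sample. Added after seeing the data were limma's voom on the recovered reads and WT tumours 1 and 2 averaged as 1 sample.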

Additional observations from a re-analysis of the deposited data

How the results depend on the processing

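Over the 10 comparisons and 160 alternatives, the number of the 10 genes called stayed within 1.5 times of the reported number in 136 and moved in 24. In WT tumours against WT normal livers, 4 were called, and 2 without a filter on low values, 2 with a replicate block, 2 with WT tumours 1 and 2 averaged, and 1 to 5 when a sample was left out. The averaging lost the calls of *Uox* (limma adjusted p = 0.0995) and *Gls2* (limma adjusted p = 0.128). In WT tumours against WT non-tumour livers, 0 were called, and 1 in a fit of all 18 samples and 0 to 2 when a sample was left out. In GKO tumours against GKO non-tumour livers, 1 was called, and 0 in a fit of all 18 samples, 2 with voom and 0 to 2 when a sample was left out. In GKO tumours against GKO normal livers, 1 was called, and 0 without a filter, with quantile normalization, with median centring, in the fit of all 18 samples or with no trend, and 0 to 1 when a sample was left out. The 1 call there was *Gls2* and not *Cyp2f2* with the replicate block and without GKO tumour 2. The causes were not tested. In the other 6 comparisons 0 were called under every alternative run. The 6 calls of single genes kept their direction in all 94 alternatives and their call in 58.

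Same-numbered samples of 2 groups deviated from their group means with correlations of -0.30 to 0.25. In 0 of 9 comparisons did all 3 pairs exceed 0.1, so the numbers were not taken to pair the samples. Only tumours and non-tumour livers of the same genotype could come from the same mice, and low correlations do not exclude this. In 1 comparison, GKO tumours against GKO non-tumour livers, every tumour correlated best with its own number, and the replicate block gave 1 call there, *Sds*, as without the block. With 3 samples per group, 1 sample could end most calls.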
